A study of Bos taurus with 10 samples.

Results

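The ileum, the last stretch of the small intestine, was represented by 1 of 10 bovine RRBS libraries and was set against the libraries of the other 9 tissues, cytosine by cytosine. The sites compared were the autosomal CG sites that carried 8 or more reads in all 10 libraries, matched on chromosome, position and strand. There were 51227 of them, which is 46.6 % of the 109954 autosomal CG sites of the ileum library and part of the 452664 autosomal CG sites found in at least 1 library. The ileum was juvenile, as were mammary gland parenchyma, frontal cortex and abomasum. The lactating mammary gland, taken on d 90, was adult, and so were uterus, testis, skeletal muscle and nucleated blood cells, while the rumen was fetal. Testis and rumen came from males and the other 8 tissues, the ileum included, from females. The tissues came from the Hereford cow of the cattle reference genome and from relatives, none is described as treated, and which animal gave which tissue is not given in the sources used here. Tissue, age, sex and animal therefore cannot be told apart in any comparison with the ileum. Every tissue has 1 library without replicates, so the read tests given here compare libraries and cover counting error only.

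DNA methylation in mammals is the addition of a methyl group to cytosine, mostly where cytosine is followed by guanine (CG). CG sites in dense groups, the CG islands, are usually free of methylation, whereas isolated CG sites are usually methylated, and a minority differ between cell types. The wall of the ileum combines an absorptive epithelium with smooth muscle, connective tissue and, in young ruminants, large lymphoid patches rich in white blood cells. A level measured in the whole tissue is thus an average over its cells. In reduced representation bisulphite sequencing (RRBS), DNA is cut at CCGG by *MspI* and treated with bisulfite, which changes unmethylated cytosines and spares methylated ones. The methylation level is the share of reads that still show a cytosine, given here in percent, and differences between levels are given in points.

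The sequences that carry the largest differences of the ileum were put together from the 5 bases that the deposited tables give around each cytosine, on the plus strand of UMD3.1. CG sites of the shared set are in capitals, and CG pairs in lower case were not among the shared sites. Of the 6 clusters where the ileum lay highest by the largest gaps, the 3 whose sequence was complete in those bases are shown, which are ranks 1, 2 and 5 by gap.
chr4:75385196-75385242: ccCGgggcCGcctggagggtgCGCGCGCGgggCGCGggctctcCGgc
chr19:22408817-22408867: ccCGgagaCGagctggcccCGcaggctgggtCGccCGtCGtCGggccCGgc
chr3:105782530-105782621: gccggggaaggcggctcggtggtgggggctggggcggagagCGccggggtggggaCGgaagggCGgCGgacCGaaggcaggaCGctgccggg
The 3 clusters where the ileum lay lowest by the largest gaps were these.
chr19:54023830-54023879: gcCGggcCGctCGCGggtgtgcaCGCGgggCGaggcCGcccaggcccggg
chr16:81618871-81618923: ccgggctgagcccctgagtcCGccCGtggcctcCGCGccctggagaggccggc
chr25:4168645-4168694: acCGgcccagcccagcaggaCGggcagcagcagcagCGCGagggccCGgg
The next stretch ends in the only CG site called apart from all 9 other libraries, which is its last CG in capitals.
chr7:31762581-31762641: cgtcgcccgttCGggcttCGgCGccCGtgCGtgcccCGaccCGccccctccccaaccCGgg
Of the last group, the ileum shared the level of nucleated blood cells in the stretch on chromosome 13 and lay between blood cells and the other tissues in those on chromosomes 4 and 7.
chr13:79958887-79958989: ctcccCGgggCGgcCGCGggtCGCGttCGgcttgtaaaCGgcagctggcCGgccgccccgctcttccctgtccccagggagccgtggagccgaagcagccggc
chr4:115057979-115058030: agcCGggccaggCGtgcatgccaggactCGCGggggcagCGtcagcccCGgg
chr7:45562435-45562482: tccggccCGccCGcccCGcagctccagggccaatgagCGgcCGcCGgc
No UMD3.1 gene annotation was used here, so none of these stretches is placed in or near a gene, and the label of the ileum was not checked against marker genes.

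The ileum was sequenced to a median of 50 reads per shared CG site, the highest of the 10 libraries. The other medians lay between 32 and 47 reads except in abomasum, where the median was 12 reads. Reads summed over cytosines came to 24342159 in the ileum and to between 16125651 and 40089443 in the other libraries. Sites of the set near the limit of 8 reads had lower levels than the whole set, over which the ileum averaged 29.8 %. The ileum averaged 25.9 % at the 7217 sites whose lowest coverage was exactly 8 reads and 26.6 % at the 12471 sites where it was 9 or 10. Just outside the set, it averaged 28.0 % at the 31905 sites present in the ileum and in 8 of the 9 other libraries, and 42.7 % at the 1595 sites present in no other library.

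Averaged over the shared CG sites, the ileum had a methylation level of 29.8 %, second to nucleated blood cells with 31.8 % and next to uterus with 29.7 %. The lactating mammary gland had 28.3 %, mammary gland parenchyma 28.1 %, abomasum 28.1 %, skeletal muscle 28.0 %, rumen 27.3 %, frontal cortex 27.0 % and testis 24.1 %. The other 9 tissues averaged 28.0 % ± 2.06 (SD, n = 9), so that the ileum lay 1.75 points above them, within 1 SD of their spread. A two-sided exact permutation of which tissue stands alone gave p = 0.3, where 0.1 is the smallest p that this design allows. The order depended on how reads were weighted. When sites were weighted by their coverage, the ileum had 45.5 % and lay 0.648 points below the mean of the others. Without testis, the tissue of lowest level, the unweighted excess was 1.27 points. The excess of the unweighted mean was spread over the genome. The ileum lay above the mean of the other tissues on 28 of 29 autosomes, ranking 2 to 4 among the 10 tissues on these.

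The exception was chromosome 28, where 118 of the shared sites fall between positions 1893813 and 1894960. At these sites, the ileum averaged 57.7 % against 66.3 % for the mean of the other tissues, whose own averages ran from 56.9 % in testis to 78.6 % in the lactating mammary gland. At the other 606 shared sites of that chromosome the ileum was 1.37 points above the mean of the other tissues. The interval was picked after its values were seen.

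Almost all of the excess came from sites of variable level. At the 24542 sites below 10 % in all 10 tissues the ileum averaged 0.932 % and the other tissues 0.306 to 1.33 %. At the 1095 sites above 90 % in all 10, the ileum averaged 97.7 %, as the mean of the others did within 0.1 points. At the remaining 25590 sites the ileum averaged 54.6 %, against 51.2 % for the mean of the others. Of all shared sites, 64.4 % were below 20 % in the ileum and 22.1 % were above 80 %.

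The ileum was rarely the extreme tissue on the low side. Its level was strictly the lowest of the 10 at 603 sites, or 1.18 %, and strictly the highest at 3955 sites, or 7.72 %. Uterus was the lowest at fewer sites, 549, while testis was the lowest at 8310 and nucleated blood cells were the highest at 10152. Most of the places held by the ileum rested on small gaps. Where it was highest, the mean of the other tissues was below 5 % at 61.1 % of the sites, and the gap to the nearest tissue was under 5 points at 82.0 %. With a gap of at least 10 points to the nearest tissue, the ileum was lowest at 61 sites and highest at 201. These 262 sites were fewer than those of any other tissue but uterus, which had 169, and compare with 424 in rumen, 1718 in nucleated blood cells and 4990 in testis. With a gap of at least 25 points, the ileum was lowest at 2 sites and highest at 10, and its largest gaps were 26.5 points below and 42.6 points above the nearest tissue.

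**Figure D1:**
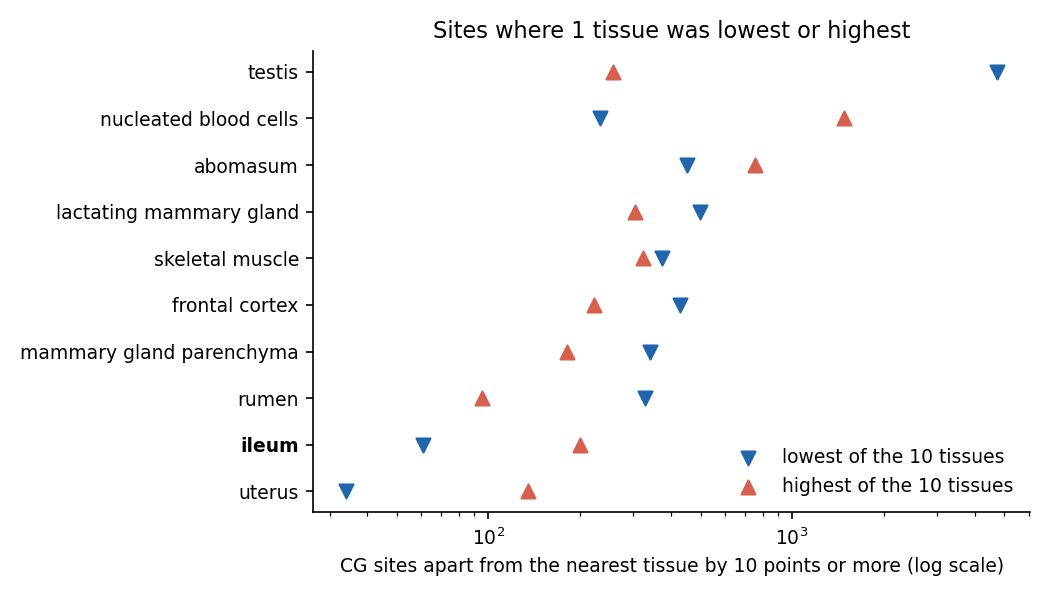
CG sites at which 1 tissue lay at least 10 points below (downward triangles) or above (upward triangles) all 9 others, by tissue, on a logarithmic axis. The ileum, in bold, had 61 sites in which it was lowest and 201 in which it was highest. Only uterus had fewer in all, an order that did not hold on reads thinned to equal coverage.

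Depth differed between libraries and can move such ranks, so all libraries were also thinned to the lowest coverage at each site. The ileum was then the lowest at 388 sites and the highest at 2453, and uterus at 371 and 2505. By at least 10 points, the thinned ileum was lowest at 210 sites and highest at 1006. Rumen then had 580 and 549, mammary gland parenchyma 533 and 611 and uterus 200 and 1032. The place of the ileum by such sites in all thus changed. It had more than rumen and mammary gland parenchyma, and fewer than uterus. Counted without a smallest gap, the ileum was highest more often than lowest with equal coverage too. So were 7 of the other 9 tissues, testis and frontal cortex being the exceptions.

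The lowest and highest sites of the ileum differed in place and level. Where it was lowest, its median level was 63.4 % and the median of the mean of the others 85.5 %, and 30.0 % of the sites lay in an *MspI* cutting site, the end of a fragment, against 12.9 % of all shared sites. Where it was highest, 11.0 % lay in such a site. At the cutting sites in the lowest group the ileum averaged 28.1 %, and at the other sites of that group 60.1 %. Both strands were read at 12912 CG pairs, over which the levels of the ileum on the 2 strands correlated at r = 0.955. The ileum was highest on the plus strand at 963 of these, on the minus strand at 1040 and on both at 133, and lowest on both strands at 15, against 105 and 80. Where the ileum was highest, the nearest tissue was nucleated blood cells at 31.1 % of the sites with 1 nearest tissue, and at 34.9 % of those with a gap of at least 10 points. Where the ileum was lowest, testis was nearest most often, at 17.4 % of the sites, and blood cells at 11.2 %. Blood cells were themselves the tissue most often highest and testis the one most often lowest.

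The 262 sites apart by at least 10 points fell into 157 of the 3392 windows of 100 kb that hold shared sites, and 115 windows held 1 of them. Only 8 windows held 5 or more, with 57 of the sites between them. The fullest lay on chromosome 4 with 12 sites, on chromosome 19 with 10, on chromosome 7 with 8 and on chromosome 25 with 7, and in all 4 the ileum was the highest tissue at each.

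A site was called different between the ileum and another library with q below 0.01, from Fisher's exact test with Benjamini-Hochberg adjustment over all shared sites, and a difference of at least 25 points. Sites called against all 9 others in the same direction number 0 for lower levels in the ileum (0.0 % of the sites) and 1 for higher levels (0.00195 %). At an unadjusted p below 0.05 with the same 25 points, the counts were 0 and 7. The same rule gave 342 sites in testis, 87 in nucleated blood cells, 39 in the lactating mammary gland, 16 in abomasum, 14 in frontal cortex, 4 in rumen, 3 in uterus, 2 in skeletal muscle and 0 in mammary gland parenchyma.

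The only site called for the ileum is the minus-strand cytosine at position 31762639 of chromosome 7, in the CCGG that ends its stretch. In the ileum 33 of 42 reads were methylated, a level of 78.6 % with a 95 % Wilson interval of 64.1 to 88.3 %. The levels of the others were 20.4 % in skeletal muscle, 12.3 % in testis, 28.9 % in mammary gland parenchyma, 27.3 % in uterus, 27.5 % in frontal cortex, 29.5 % in abomasum, 15.5 % in rumen, 36.0 % in nucleated blood cells and 3.90 % in the lactating mammary gland. The ileum thus lay 42.6 points above its nearest tissue. The 14 other shared sites of the same cluster did not follow it. The ileum ranged there from 19.2 to 61.8 %, with 107 to 130 reads and a mean of 38.5 %, and was neither lowest nor highest at any of them, while the means of the other tissues ran from 6.72 to 47.4 %. The 42 reads of the ileum at the called site were the fewest of the 10 libraries, the others having 50 to 180. At 31762623, the nearest other site on the minus strand, the ileum had 127 reads and the library of lowest coverage 49. The part of this loss of reads in the level of the ileum was not tested. The call was not made on thinned reads, where 0 sites were called.

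Of the 51227 sites, leaving testis out of the comparison added 6 lower in the ileum and 2 higher, and leaving out nucleated blood cells added 1 higher. Leaving out any of the other 7 tissues added none. Such gains were not particular to the ileum and differed between tissues. Without frontal cortex, the sites called lower in testis rose from 328 to 483. Without abomasum, those called for skeletal muscle rose from 2 to 30, while uterus kept 3 whichever tissue was left out. At the 6 lower sites, the ileum shared low levels with testis. At position 95025941 of chromosome 3, the ileum had 13.9 % and testis 3.70 %, and the other 8 tissues ran from 59.5 % in the lactating mammary gland to 79.1 % in skeletal muscle. A pair of sites on the same chromosome, at 13937184 and 13937199, had 17.4 and 14.1 % in the ileum and 7.19 and 2.94 % in testis, where the lowest of the other tissues had 47.9 and 43.4 %. Another pair on chromosome 7, at 12123594 and 12123604, had 12.1 and 10.8 % in the ileum and 3.60 and 5.71 % in testis, and the lowest of the others, frontal cortex in one and skeletal muscle in the other, had 39.2 and 42.4 %. The last, at 30327739 of chromosome 25, had 28.3 % in the ileum, 18.9 % in testis and 66.1 % or more elsewhere. The sites added on the high side were at 1048658 of chromosome 3, with 94.2 % in the ileum and 74.1 % in testis, at 89222529 of chromosome 7, with 75.7 and 61.5 %, and, without blood cells, at 53574117 of chromosome 9, with 89.7 % in the ileum and 68.4 % in blood cells. These sites were listed after their values were seen.

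Shared CG sites no more than 200 bp apart, at least 5 in number, formed 4228 clusters with 46560 sites, and the level of a cluster is the mean of its sites. The ileum was the lowest tissue in 108 clusters and the highest in 342. No cluster put it 25 points below or above all others. Testis was that far below all others in 83 clusters and nucleated blood cells that far above in 15. By at least 10 points the ileum was lowest in 3 clusters and highest in 6, a limit set after the larger one gave none. Sites of a cluster share reads, so their number adds little independent evidence, and the clusters described next were chosen for their gaps, whose size is therefore given without a test.

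The largest gap above the nearest tissue was in the 14 sites of the stretch chr4:75385198-75385240. The ileum had a mean of 28.4 % there. Skeletal muscle had 3.14 %, testis 5.39 %, mammary gland parenchyma 3.04 %, uterus 9.51 %, frontal cortex 4.02 %, abomasum 5.54 %, rumen 1.53 %, nucleated blood cells 7.91 % and the lactating mammary gland 8.24 %. The ileum was the highest tissue at 14 of 14 sites, on both strands, with levels of 20.3 to 35.0 % and 60 to 64 reads.

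In the 14 sites of chr19:22408819-22408865 the ileum had 49.7 %, followed by nucleated blood cells with 33.6 %, abomasum with 22.4 %, uterus with 19.2 % and testis with 10.7 %. The other 5 tissues had 2.36 to 7.16 %. The ileum was highest at all 14 sites, with 36.0 to 60.0 % and 49 to 87 reads.

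In chr3:119348146-119348184 the ileum had 92.8 % over 7 sites. The other tissues spread widely, from 17.6 % in the lactating mammary gland and 27.7 % in mammary gland parenchyma to 77.4 % in rumen. In chr25:32362159-32362289, a cluster of 6 sites with 209 to 685 reads in the ileum, the ileum had 49.8 % and the others 9.78 % in the lactating mammary gland to 35.8 % in nucleated blood cells. The median of the ileum over all shared CG sites was 50 reads, and the cause of the greater depth was not tested. At the last site of this cluster, the library of lowest coverage had 9 reads.

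In chr3:105782571-105782612 the ileum had 61.5 % over 6 sites and abomasum, the next, 49.1 %, with 20 to 31 reads in the ileum. In chr18:14533611-14533639 the ileum had 62.2 % over 7 sites and was highest at each, frontal cortex followed with 50.4 %, and nucleated blood cells had 0.985 %. The ileum stood on the side away from blood cells in both clusters. The 4 clusters ranked next on the high side put the ileum 6.64 to 9.08 points above the nearest tissue, on chromosomes 27, 8, 7 and 14.

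The largest gap below was in the 8 sites of chr19:54023832-54023866, where the ileum had 79.7 %. The lactating mammary gland had 95.0 %, mammary gland parenchyma 96.8 %, rumen 97.6 %, frontal cortex 97.7 %, testis 97.8 %, skeletal muscle 97.9 %, nucleated blood cells 98.5 %, abomasum 98.6 % and uterus 99.3 %. The ileum was lowest at all 8 sites, with 70.7 to 86.2 % and 57 or 58 reads, while the nearest tissue kept at least 95.0 % over the cluster. The coverage of the other libraries was as low as 8 reads there.

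In chr16:81618892-81618907 the ileum had 60.3 % over 7 sites, with 19 to 33 reads, and uterus, the nearest, had 73.8 %. The ileum was lowest at 6 of the 7 sites. In chr25:4168647-4168692 it had 63.8 % over 6 sites and abomasum 77.3 %, with the ileum lowest at each site. The 3 low clusters each held sites with fewer than 10 reads in some library, and with a minimum of 10 reads 0 clusters were left with the ileum 10 points below all others. The 7 clusters ranked next put the ileum 3.36 to 9.87 points below the nearest tissue. In the one with most sites, the 23 sites of chr21:32118107-32118216, the ileum had 6.62 %, rumen 9.98 % and skeletal muscle 46.1 %.

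**Figure D2:**
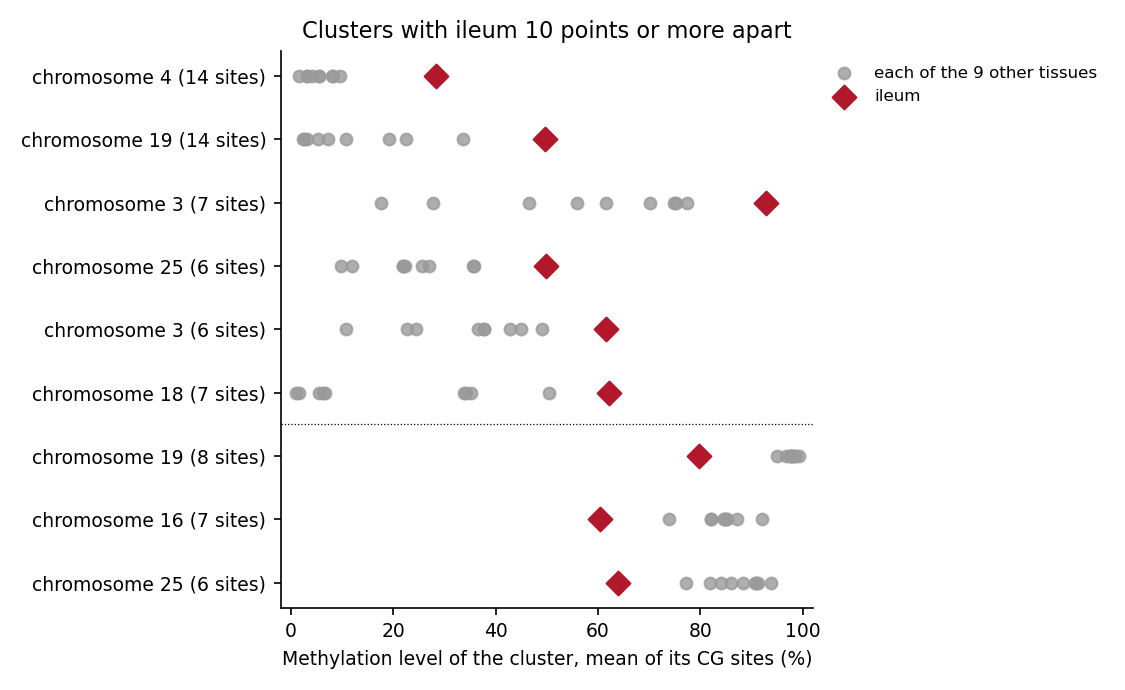
Methylation level, as the mean over the CG sites of a cluster, in the ileum (diamonds) and in each of the 9 other tissues (circles), for the 6 clusters in which the ileum was highest (above the dotted line) and the 3 in which it was lowest by at least 10 points. In the first cluster the ileum stood at 28.4 % and the others at 1.53 to 9.51 %, and in the first of the lower clusters it stood at 79.7 % and the others at 95.0 to 99.3 %.

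In 4 clusters the ileum lay at least 25 points above 8 of the 9 others, and in 0 clusters as far below 8. Testis had 138 such clusters on the low side and nucleated blood cells 28 on the high side. In chr13:79958892-79958937, 16 sites, the ileum had 81.8 % and nucleated blood cells 82.5 %, while the other 8 tissues had 3.70 to 55.7 %. In chr25:1194816-1194843, 5 sites, the ileum had 50.8 % and testis 50.4 %, and the other 8 tissues 0.541 to 14.9 %. The clusters on chromosomes 19 and 18 described above were the other two, with blood cells and frontal cortex as the exception.

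Site by site, the ileum resembled uterus most and nucleated blood cells next. Over the shared sites, Pearson's r with the ileum was 0.981 for uterus, 0.976 for nucleated blood cells, 0.964 for rumen, 0.964 for skeletal muscle, 0.963 for mammary gland parenchyma, 0.963 for abomasum, 0.962 for frontal cortex, 0.959 for the lactating mammary gland and 0.941 for testis. The middle 5 differed by at most 0.00233, less than the SD of 0.00516 that the highest r showed over the 29 autosomes. The mean absolute difference from the ileum was 4.25 points for uterus, 4.89 for nucleated blood cells, 5.41 to 5.89 for the 6 tissues between and 8.14 for testis. These values are descriptions across sites that share libraries. Over the 25590 sites that were not below 10 % or above 90 % in all 10 tissues, r was 0.961 for uterus, 0.950 for nucleated blood cells and 0.890 for testis.

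Of the 45 pairs of tissues, uterus with ileum had the highest r, followed by uterus with nucleated blood cells at 0.977 and by ileum with nucleated blood cells. Uterus was the nearest tissue to the ileum on 26 autosomes and nucleated blood cells on 3, and testis was the farthest on 26. The abomasum and rumen, the other tissues of the digestive tract, were not nearest on any autosome. At the 14427 sites where the other 9 tissues ranged over at least 25 points, 13350 had 1 nearest tissue to the ileum, which was uterus at 16.7 %, nucleated blood cells at 15.6 % and testis at 7.09 %, with 9.33 to 10.8 % for the other 6. With a range of at least 50 points, uterus was nearest at 17.3 % and nucleated blood cells at 15.2 %.

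Read tests gave the same end of the order. The ileum differed from uterus at 179 sites (0.349 %), at 113 of which the ileum was higher. It differed from nucleated blood cells at 529 sites (1.03 %), where the balance turned and the ileum was lower at 323. From abomasum, the library of lowest coverage, it differed at 327 sites (0.638 %), with 193 higher in the ileum. From skeletal muscle it differed at 795 sites (1.55 %), from mammary gland parenchyma at 829 (1.62 %) and from rumen at 980 (1.91 %), and of these the ileum was higher at 529, 673 and 841. From frontal cortex it differed at 1075 sites (2.1 %), with 872 higher, and from the lactating mammary gland at 1291 (2.52 %), with 962 higher. From testis it differed at 3759 sites (7.34 %), with 3577 higher. In 8 of the 9 comparisons, the ileum had more sites with a higher level than with a lower one, and nucleated blood cells were the exception.

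The same test was run on the 51227 sites with reads thinned to the lowest coverage at each. Of these it called 17 sites against uterus, 47 against nucleated blood cells, 53 against skeletal muscle and 54 against mammary gland parenchyma. Against abomasum it called 98, against rumen 120, against frontal cortex 150, against the lactating mammary gland 228 and against testis 959. Only uterus had fewer sites than abomasum by the full count, but 4 tissues had fewer at equal coverage. The direction turned for uterus, with 15 of 17 sites lower in the ileum, and for mammary gland parenchyma, with 36 of 54 lower. In all, 6331 shared sites (12.4 %) were called against at least 1 library, 5183 with the ileum higher only, 974 with it lower only and 174 with both, and 2866 of them were called against testis alone.

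**Figure D3:**
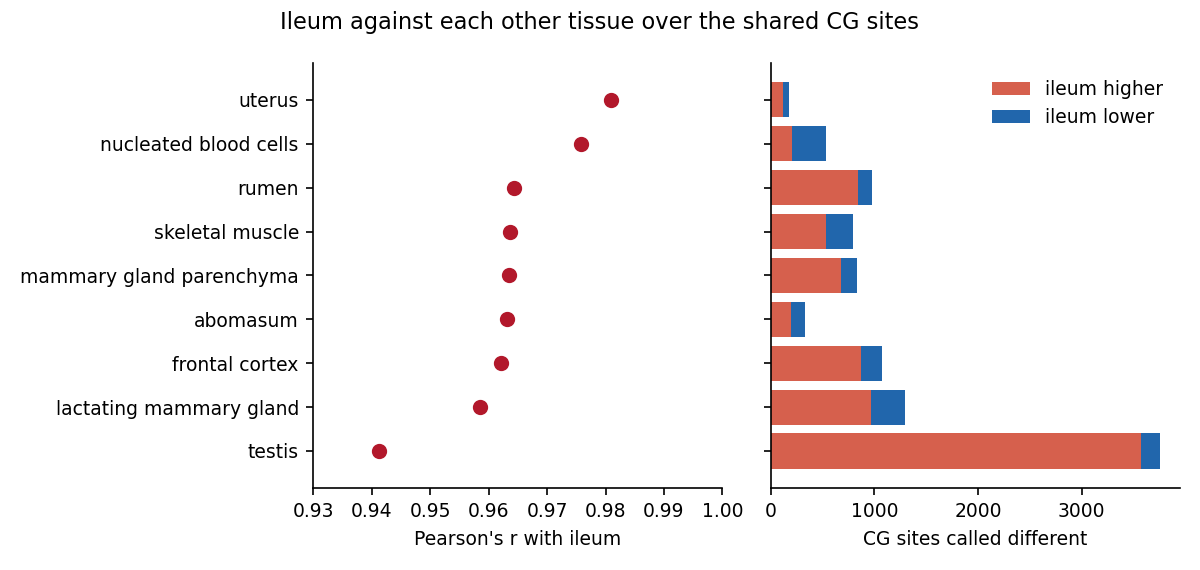
Left, Pearson's r of the ileum with each other tissue over 51227 CG sites. Right, the number of CG sites called different from the ileum, split by direction. Uterus, at r = 0.981 and 179 sites, was nearest, and testis, at 0.941 and 3759 sites, farthest.

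The likeness to nucleated blood cells was examined at the sites that set blood cells apart. These were called without the ileum, as sites where blood cells differed in 1 direction from all 8 other libraries, and the ileum was then placed on a scale from 0, the mean of those 8, to 1, the level of blood cells. There were 126 such sites, 79 with blood cells higher and 47 lower. The median position of the ileum was 0.429, with quartiles of 0.233 and 0.549, and it was above 0 at 114 sites. On the same scale, with sites called without the tissue that is placed, uterus had a median of 0.326, testis 0.0970 and skeletal muscle 0.0135, and the others were below 0. The ileum was nearer the blood cells where these were higher, with a median of 0.502, than where they were lower, with 0.225. Placed in the same way toward testis, at 386 sites, the ileum had a median of 0.0914.

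Because uterus is among the 8 libraries that call those sites, the sites were also called against the 7 tissues other than ileum and uterus, and both were placed. This gave 183 sites in 55 clusters or lone positions. At the 128 sites where blood cells were higher, blood cells averaged 88.5 %, the mean of the 7 others 22.6 %, uterus 49.3 % and the ileum 55.6 %. The ileum lay above each of the 7 at 111 sites, and uterus at 95. The median position was 0.513 for the ileum and 0.393 for uterus. At the 55 sites where blood cells were lower, blood cells averaged 5.25 %, the 7 others 77.8 %, uterus 53.5 % and the ileum 59.9 %. The ileum lay below each of the 7 at 25 sites and uterus at 46, and the median positions were 0.274 and 0.333. One cluster, chr29:44484486-44484571, held 25 of those 55 sites. Without it, the order turned, and the 30 remaining sites gave 0.370 for the ileum and 0.299 for uterus.

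**Figure D4:**
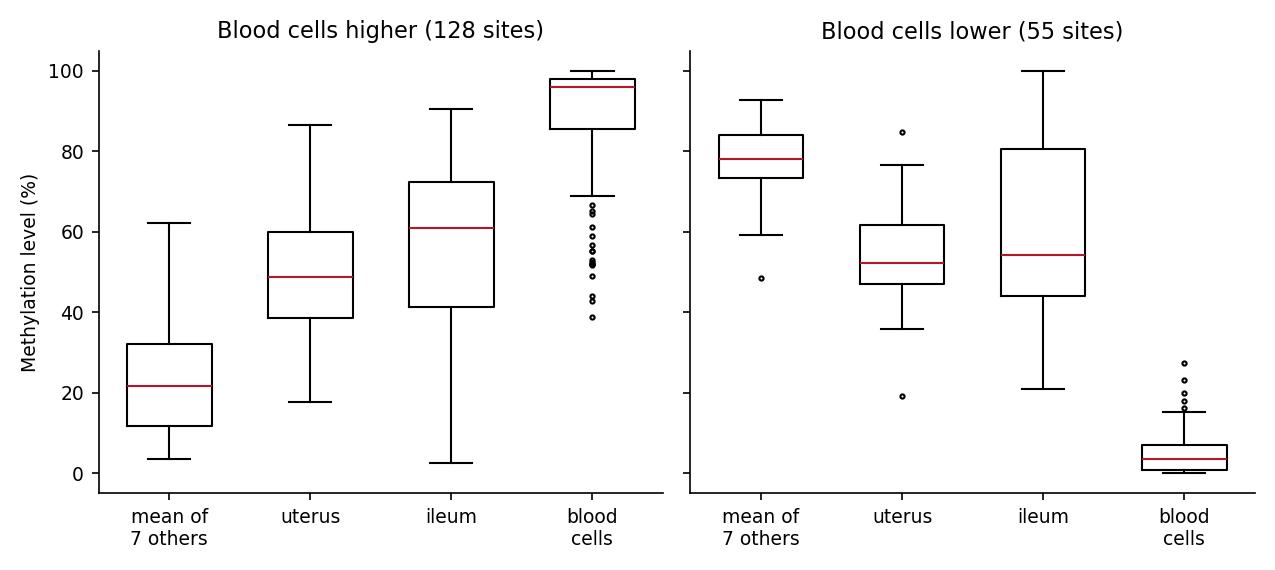
Methylation levels at the CG sites that set nucleated blood cells apart from 7 tissues, for the mean of those 7, uterus, ileum and blood cells, with blood cells higher at left and lower at right. Boxes span the quartiles with the median as a line, whiskers reach the last value within 1.5 box lengths and dots are values beyond. The ileum averaged 55.6 % at left and 59.9 % at right, between blood cells and the 7 others.

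Among the clusters that held at least 5 of the 126 sites, the median position of the ileum was above 0 in 8 of 9 and ran from -0.177 to 0.754. It was nearest to blood cells in the stretch chr4:115058007-115058018, where over 5 sites blood cells had 98.1 %, the ileum 80.5 %, testis 66.6 %, uterus 44.7 % and the other 6 tissues 2.33 to 24.0 %. In chr7:45562442-45562480, 11 sites, blood cells had 99.0 %, the ileum 61.1 %, testis 54.0 %, uterus 50.4 % and the others 3.92 to 33.9 %. In chr22:15160028-15160051 blood cells had 90.5 %, the ileum 68.4 %, uterus 47.0 % and the others 12.0 to 42.4 %. On the low side, in chr18:62616269-62616306, blood cells had 2.85 %, the ileum 43.9 %, uterus 65.3 % and the others 69.4 to 87.0 %. The ileum was intermediate in each of these 4.

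The exception was chr11:101128518-101128535, where blood cells had 11.2 % over the 6 sites called and the ileum 93.0 %, above the mean of 82.8 % in the 8 others, with 13 to 16 reads in the ileum. In chr29:44484486-44484571, over 25 sites, blood cells had 1.88 %, uterus 48.4 %, the ileum 62.4 % and the others 62.8 to 90.1 %. The ileum varied along this cluster from 34.1 to 88.5 %. The share of white blood cells in the ileum and uterus samples was not measured, and their part in these positions was not tested.

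Outside CG, cytosines are classed as CHG and CHH, where H is A, C or T, and their levels are low in most tissues. At the 95338 autosomal non-CG sites with 8 or more reads in all 10 libraries, the ileum had the highest mean level of the 10. Over 38838 CHG sites, the ileum had 1.19 %, and the other 9 tissues 1.08 % ± 0.0598 (SD, n = 9) with a highest value of 1.18 % in nucleated blood cells. Over 56500 CHH sites, the ileum had 1.71 % and the others 1.58 % ± 0.0524. For all non-CG sites the ileum had 1.50 % and the others 1.37 % ± 0.0546, from 1.30 to 1.47 %. The difference of 0.126 points gave p = 0.1 in the exact permutation test, two-sided, which is the smallest p the design allows. When sites were weighted by their coverage, the ileum did not keep the highest place. It then had 2.31 % over all non-CG sites and nucleated blood cells 2.33 %, and p was 0.2 in the same exact permutation. Over CHH sites alone the weighted ileum had 2.62 %, below 2.75 % in blood cells and 2.67 % in rumen, and over CHG sites it was still highest with 1.72 %. Reads that bisulfite failed to convert add to non-CG levels and differ between libraries. The paper lists the lowest bisulfite conversion rate of all its libraries for the ileum, and the next lowest for nucleated blood cells. Blood cells were also second to the ileum in the unweighted non-CG mean. The part of unconverted reads in the non-CG excess of the ileum, at sites of low level and in each sequence context too, was not tested.

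The excess of the ileum was present at sites of low level. At the 93664 non-CG sites at or below 20 % in all 10 tissues, the ileum had 0.685 % and the others 0.589 % ± 0.0350. At such sites the ileum was also highest in each dinucleotide, with 0.964 % at CA, 0.652 % at CC and 0.535 % at CT, where the others averaged 0.866, 0.551 and 0.450 %. The level of 0 was less frequent in the ileum, with 70.6 % of CHG sites, than in the others, with 73.4 to 86.1 %, and the ileum had the highest coverage at the shared CG sites. Of the 1006 non-CG sites above 20 % in the ileum, 715 were above 20 % in all 10 tissues and 16 in the ileum alone, while 4 sites were so in all 9 others and not in the ileum.

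**Figure D5:**
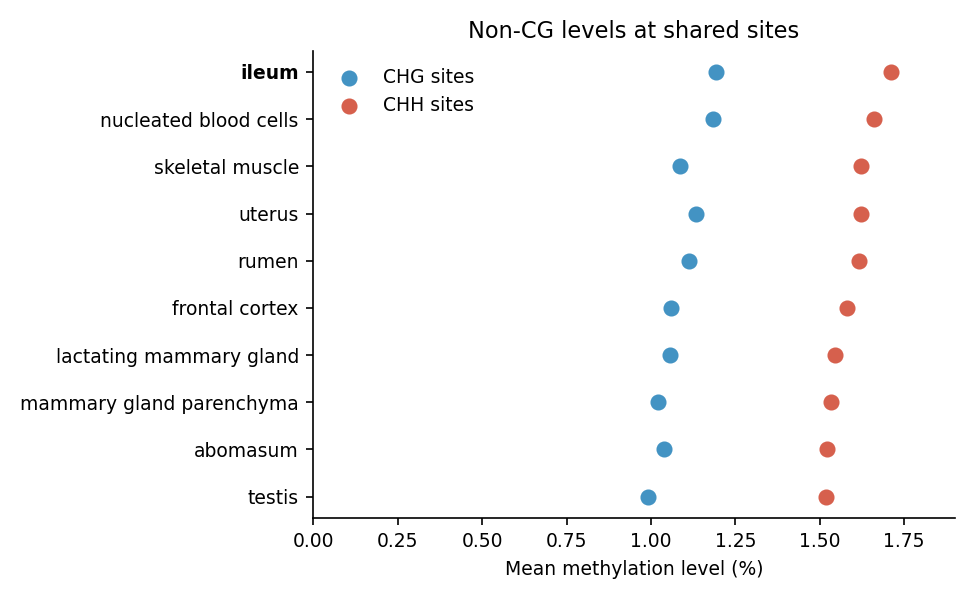
Mean methylation level at shared CHG and CHH sites in each tissue, ordered by the CHH level. The ileum, in bold, had the highest unweighted mean of both, 1.19 and 1.71 %.

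Of the 95338 non-CG sites, 25 (0.0262 %) were called between the ileum and frontal cortex. Against the lactating mammary gland 99 (0.104 %) were called, and the other 7 counts lay between. Against all 9 libraries 2 sites were called (0.0021 %), both higher in the ileum. At 14758240 on the minus strand of chromosome 20, a CHG site, all 87 reads of the ileum were methylated, while the others had 31.6 % in rumen to 61.3 % in testis. At 32367431 on the minus strand of chromosome 25, also CHG, all 134 reads of the ileum were methylated, and the others ran from 10.2 % in the lactating mammary gland to 64.8 % in nucleated blood cells. The second lies in the same 100 kb window as the cluster of chromosome 25 in which the ileum was highest among CG sites. At both, every other tissue had a level far above that usual for non-CG sites.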

How the data were processed

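For each cytosine the authors deposited the number of reads as a count, without normalization, and the methylation level as a fraction of those reads. Per the labels and the study's methods, reads were aligned to UMD3.1 and uniquely mapped reads and cytosines with at least 8 reads were kept. Counts reach at most 65535, the value of 50 cytosines in the ileum. Methylated reads were recovered as level times reads, which was whole to within 0.001 reads at every cytosine.

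Each pair of libraries was compared by Fisher's exact test (two-sided) with Benjamini-Hochberg adjustment, calling q below 0.01 with at least 25 points. Means were compared by exact permutation. Thinning drew reads without replacement (seed 1). The calling was tested on simulated data with large increases in the ileum at sites of low level. Decreases and differences near 25 points were not simulated. Intervals are Wilson intervals at 95 % and hold for counting error alone. Clusters and sites named are those with the largest gaps, up to 10 clusters per direction; other choices are stated where made. Members and lists were chosen with earlier results of these data known. Alternatives were minimums of 10 and 20 reads, thinning, 40 points, summed strands, other gaps, weights, adjustments and correlations, and leaving out tissues. Sex chromosomes, genes and CG islands were not analysed here. Software was SciPy 1.17.1, Numba 0.67.0, NumPy 2.4.6 and pandas 2.3.3 under Python 3.11.15, with matplotlib 3.10.9 for figures.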

Additional observations from a re-analysis of the deposited data

How the results depend on the processing

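No paired analysis was possible because each tissue has 1 library. Weighting by coverage reversed the difference of the mean CG level, from 1.75 to -0.648 points, and a minimum of 20 reads raised it to 3.15 points (p = 0.6 in the exact permutation). The number of sites called for the ileum on the low side, 0, ranged from 0 to 6 when 1 other tissue was left out, and on the high side, 1, from 1 to 3, with testis giving the largest counts in both. On thinned reads it was 0 on the high side. With a minimum of 10 reads the clusters 10 points below all others went from 3 to 0. The highest r, with uterus, was 0.882 as Spearman's rho, 0.962 on thinned reads and 0.961 outside sites low or high in all tissues, and uterus was the nearest in each. The median position toward blood cells was 0.248 with a minimum of 20 reads, where 5 sites were left, against 0.429. The cause of these changes was not tested. The mean non-CG difference stayed above 0 under its 4 alternatives, from 0.101 to 0.296 points, but weighting by coverage put blood cells above the ileum, with p = 0.2 in the exact permutation. Coverage was lowest in abomasum. Leaving out its comparison changed neither count of sites called for the ileum, but the sites tested still had to carry 8 reads in abomasum. A minimum of 20 reads left 7147 CG sites. The thinned ranks, the clusters apart from 8 tissues and the smaller gap were chosen after the data were seen.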
